A study of Mus musculus with 6 samples.

Results

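Induced myogenic progenitor cells (iMPCs) are cells of the skeletal muscle lineage made from mouse fibroblasts by reprogramming. The cells carried a nuclear GFP that reports Pax7. Sorting gave a Pax7-positive (Pax7+) and a Pax7-negative (Pax7-) fraction, of which 1 RNA-sequencing library each was made. The comparison of these 2 libraries, of 6 in the series, was made across all genes. Both fractions had been grown without doxycycline in medium that held FGF2 (10 ng/ml), forskolin (5 µM) to raise cAMP, RepSox (5 µM) to block the type I receptor of TGF-beta, and an inhibitor of GSK3 (3 µM) to switch on Wnt signalling. During reprogramming the medium held doxycycline at 2 µg/ml. Fibroblasts from embryos and from tail tips are both named as a source, and the labels do not say which gave these cells. Nor do they say whether both fractions came from the same culture, whether it was a bulk culture or a clone, its passage, or the mouse strain. The other 4 libraries were quiescent satellite cells (QSC, 1 library from mouse 1 and 1 from mouse 3), activated satellite cells (ASC, 1 library, whose title adds Pax7-plus and p1) and mouse embryonic fibroblasts (MEF, 1 library), and they serve here as points of reference.

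Pax7 is the transcription factor that marks the stem cells of skeletal muscle, the satellite cells. In muscle these cells rest until injury, then divide as Pax7- and Myod1-bearing myoblasts, lose Pax7, switch on Myog and leave the cell cycle to fuse into fibres that carry sarcomeres. Notch signalling between neighbouring cells keeps satellite cells undifferentiated, and fibroblasts of the connective tissue supply the collagen matrix around the fibres.

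The fractions were deep enough for low genes to be followed. The Pax7-positive library held 26351821 counts and the Pax7-negative library 24446555, within the range of 20859611 to 29279686 over all 6, and 18471 genes had a count in the Pax7-positive and 19545 in the Pax7-negative library. Levels are given as CPM, read counts scaled by TMM to a common library total, in which 5 CPM stood for 155.4 counts in the Pax7-positive and 148.05 counts in the Pax7-negative library. Because each fraction had 1 library, no difference here has a replicate check, no p-value was computed, and the 95% counting intervals cover counting error only. A gene was called higher or lower when it was 4-fold or more apart (2 on the log2 scale) and reached 5 CPM in the higher fraction. Since these are bulk samples, fewer cells of a type and less RNA per cell cannot be told apart. A CPM value does not correct for gene length, so each gene is compared only with itself.

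The sorted gene followed the labels. Pax7 was at 37.8 CPM in the Pax7-positive and 6.25 CPM in the Pax7-negative library, 6.06-fold higher (95% counting interval 5.18 to 7.11), beside 34.5 and 159.7 CPM in the QSC libraries, 19.8 CPM in ASC and 0 CPM in MEF. Since Pax7 reporter signal defined the fractions, this ratio is a check of the labels and not a result; Pax7 transcripts were present in both and had 1176 counts in the Pax7-positive and 185 in the Pax7-negative library. Xist, the RNA of the inactive X chromosome, was at 39.1 CPM in Pax7+ and 24.7 CPM in Pax7- cells, and the Y-linked Ddx3y at 0 CPM in Pax7+ and 0.135 CPM in Pax7- cells. The QSC libraries differed from each other, with mitosis genes summing to 471 CPM in that of mouse 1 and 34.95 CPM in that of mouse 3, so both are given throughout.

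Of 11058 genes at 5 CPM or more in the higher fraction, 23 (0.208%) were called higher and 736 (6.66%) lower in the Pax7-positive library, 759 (6.86%) in all. These shares are the background for the counts of every gene list below. With 0.208% called higher, 0 higher in a short list does not set it apart from all genes. At 2-fold the split was 556 genes (5.03%) higher and 1483 (13.4%) lower. At 8-fold it was 4 higher and 357 lower, and at 16-fold 0 higher and 162 lower. The larger differences thus lay mostly in genes with more counts in the Pax7-negative library. The 736 genes took 0.718% of all counts in the Pax7-positive and 5.74% in the Pax7-negative library, while the 23 genes took 0.242% in the Pax7-positive and 0.0544% in the Pax7-negative library. The middle of the distribution stood near 0, with a median log2 ratio of 0.06, a 5th percentile of -2.38 and a 95th percentile of 1.00. For 14 of the 23 and 616 of the 736 genes the whole counting interval lay beyond 4-fold. At the edge, Met, the receptor of hepatocyte growth factor, was just inside (log2 ratio 2.00) and Nrarp, a Notch target, just outside (13.8 CPM in Pax7+ against 3.41 CPM in Pax7- cells, also 2.00 after rounding). On the other side, Podxl was just inside (2.54 CPM in Pax7+ against 10.4 CPM in Pax7- cells) and Cdc42ep5 just outside (4.76 CPM in Pax7+ against 19.3 CPM in Pax7- cells).

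**Figure D1:**
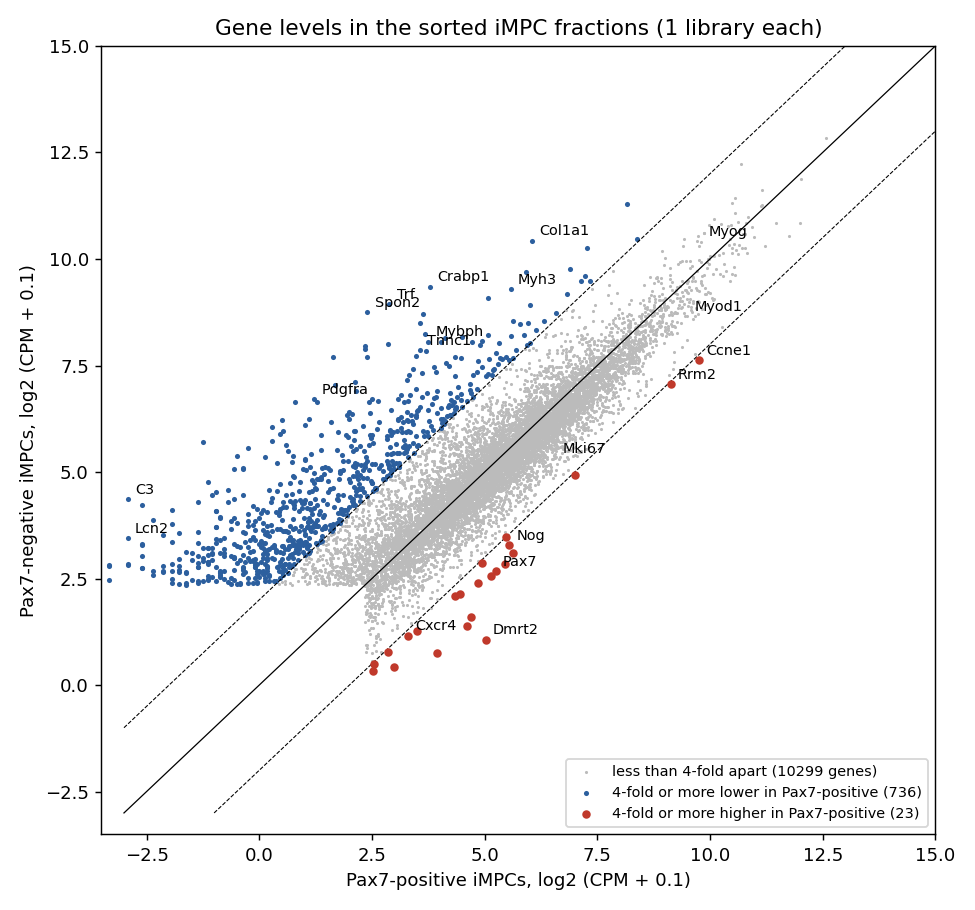
Level of each of 11058 genes in the Pax7-positive (horizontal axis) and the Pax7-negative iMPC library (vertical axis), as log2 of CPM plus 0.1; the solid line marks equal levels and the dashed lines 4-fold. The 736 blue genes above the upper line reach down to the detection limit of the Pax7-positive library. The 23 red genes lie below the lower line, 4 of them at 8-fold or more.

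The genes called higher in Pax7-positive iMPCs were a short list with few shared roles. The largest ratio belonged to Dmrt2, a DM-domain transcription factor of the embryonic dermomyotome, at 32.5 CPM in the Pax7-positive and 1.99 CPM in the Pax7-negative library, 16.3-fold higher (95% counting interval 12.5 to 21.6). It was at 75.8 and 51.1 CPM in the QSC libraries, 10.3 CPM in ASC and 0.673 CPM in MEF, so the satellite cell libraries and the Pax7-positive fraction were high and the Pax7-negative fraction and MEF low. Susd5, a membrane protein with sushi domains, followed at 24.2 CPM in Pax7+ and 2.53 CPM in Pax7- cells and was at 2.00 and 0 CPM in the QSC libraries, 3.79 CPM in ASC and 3.18 CPM in MEF. Iqsec3, an exchange factor for ARF GTPases, was at 25.8 CPM in Pax7+ and 2.90 CPM in Pax7- cells, with 81.0 and 62.1 CPM in the QSC libraries, 111 CPM in ASC and 0.0374 CPM in MEF.

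Dbx1, a homeobox factor known from the developing spinal cord, was at 43.4 CPM in Pax7+ and 7.06 CPM in Pax7- cells and at 4.67 and 7.10 CPM in the QSC libraries, 0 CPM in ASC and 0 CPM in MEF, so that the Pax7-positive library stood above all the others. Scrn1 was at 35.4 CPM in Pax7+ and 5.81 CPM in Pax7- cells. Bcas1, a gene of myelinating glia, was at 7.85 CPM in Pax7+ and 1.25 CPM in Pax7- cells. Lix1, a factor with a known part in mesenchymal progenitors, was at 49.3 CPM in Pax7+ and 8.54 CPM in Pax7- cells, and at 27.3 and 40.3 CPM in the QSC libraries, 24.3 CPM in ASC and 0.822 CPM in MEF. Ticrr, which loads the replication machinery onto origins, was at 21.8 CPM in Pax7+ and 4.29 CPM in Pax7- cells. Ndst4, a heparan sulphate sulphotransferase, was at 20.1 CPM in Pax7+ and 4.15 CPM in Pax7- cells. Npas3, a bHLH-PAS transcription factor, was at 5.63 CPM in Pax7+ and 1.15 CPM in Pax7- cells. Of the 23 genes, 15 were at their highest of all 6 libraries in the Pax7-positive one, as were 2426 of all 11058 genes tested; the 23 were chosen for being high in that library. Besides those named here and below, the list held 2210418O10Rik, Gm6311, Svop, Mboat1, Sec14l2 and Dynap, which are named to complete it.

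Genes of satellite and progenitor identity stood higher in the Pax7-positive library as a group. Of 25 listed, 19 reached 5 CPM, 3 were called higher (Pax7, Cxcr4 and Met) and 0 lower, 8 were 2-fold or more higher and 0 lower, and the median log2 ratio was 0.88 beside 0.06 over all genes tested. The list includes Pax7 itself, the sorted gene, and Met was under 4-fold with library size alone (log2 ratio 1.97) and with the deposited RPKM (1.92). Cxcr4, a chemokine receptor of migrating muscle precursors, was at 9.75 CPM in the Pax7-positive and 2.13 CPM in the Pax7-negative library, 4.58-fold higher (95% counting interval 3.48 to 6.11), with 7.53 and 12.4 CPM in the QSC libraries, 17.0 CPM in ASC and 0.224 CPM in MEF. Met was at 44.1 CPM in the Pax7-positive and 10.9 CPM in the Pax7-negative library, 4.03-fold higher (95% counting interval 3.57 to 4.57). Fgfr4, the FGF receptor typical of muscle precursors, was at 379.5 CPM in Pax7+ and 112 CPM in Pax7- cells, a ratio of 3.38-fold (3.25 to 3.51), and at 323 and 479 CPM in the QSC libraries, 44.9 CPM in ASC and 0.299 CPM in MEF. The Pax7-positive level of Fgfr4 thus lay between those of the QSC libraries, and both fractions were above ASC.

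Other progenitor genes were close between the fractions or low. Sdc3, a heparan sulphate proteoglycan of satellite cells, was at 333 CPM in Pax7+ and 309 CPM in Pax7- cells. Sdc4, its relative, was at 184 CPM in Pax7+ and 187 CPM in Pax7- cells. Megf10 was at 65.0 CPM in Pax7+ and 61.8 CPM in Pax7- cells. Ncam1, an adhesion molecule that also marks differentiating muscle, was at 43.4 CPM in Pax7+ and 62.5 CPM in Pax7- cells. Pax3, the paralogue of Pax7, was low in both fractions, with 2 counts in the Pax7-positive and 6 in the Pax7-negative library, beside 20.5 and 55.7 CPM in the QSC libraries. Myf5, a myogenic determination factor, stayed under 5 CPM, at 3.57 CPM in Pax7+ and 1.05 CPM in Pax7- cells, a ratio of 3.41-fold (2.27 to 5.26), and was at 84.2 and 124 CPM in the QSC libraries, 28.5 CPM in ASC and 0.0374 CPM in MEF; both fractions were below both QSC libraries and ASC.

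The list of genes tied to satellite cell quiescence did not lean the same way: of 16 at 5 CPM, 0 were called higher and 3 lower, with a median log2 ratio of -0.28. Over all genes tested 0.208% were called higher and 6.66% lower. Heyl, a Notch target, was at 289 CPM in Pax7+ and 107 CPM in Pax7- cells. Notch3, a Notch receptor, was at 212 CPM in Pax7+ and 92.4 CPM in Pax7- cells. Cd34, a surface sialomucin of resting satellite cells that fibroblast and endothelial progenitors carry too, was at 1.42 CPM in the Pax7-positive and 49.3 CPM in the Pax7-negative library, 34.9-fold lower (95% counting interval 25.8 to 48.2), with 249 and 172 CPM in the QSC libraries, 19.7 CPM in ASC and 19.99 CPM in MEF. Rgs2, a regulator of G protein signalling, was at 7.01 CPM in Pax7+ and 42.7 CPM in Pax7- cells. Gpx3, an extracellular glutathione peroxidase, was at 95.7 CPM in Pax7+ and 428 CPM in Pax7- cells. For Cd34 and Gpx3 the Pax7-negative library was thus the nearer of the 2 to the QSC libraries, at 9166 and 13883 CPM of Gpx3, though well below them.

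**Figure D2:**
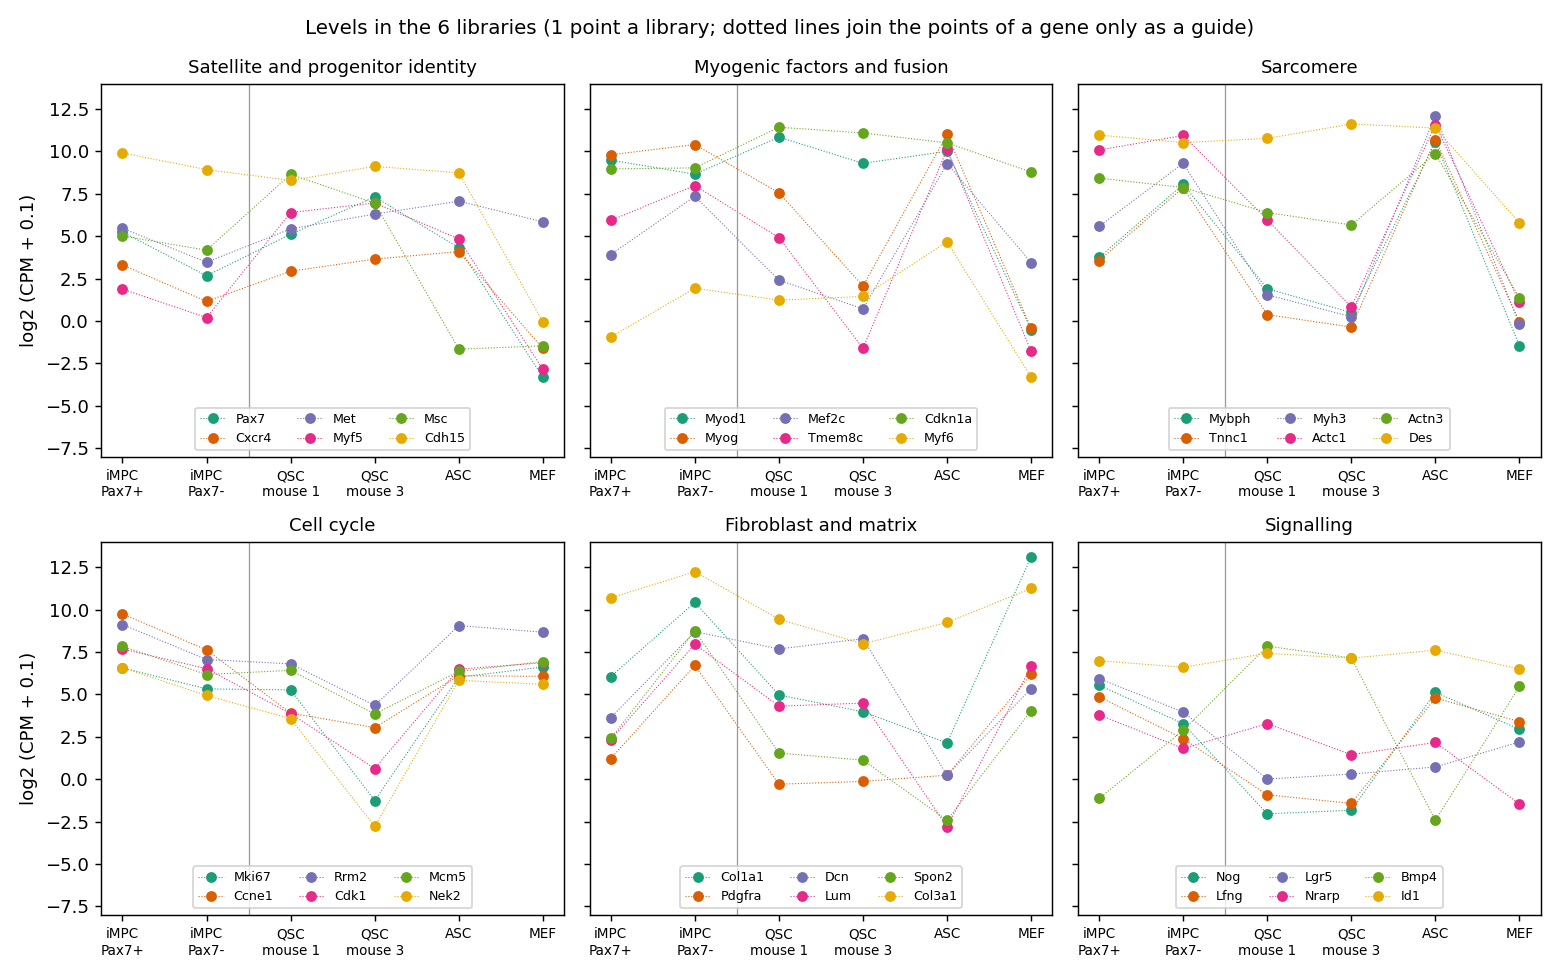
Levels of chosen genes, 6 a panel, in the 6 libraries as log2 of CPM plus 0.1, with the Pax7-positive and Pax7-negative iMPC libraries on the left of each panel and QSC, ASC and MEF on the right; 1 point is 1 library, and the genes were chosen after their values were seen. The sarcomere genes Mybph, Tnnc1 and Myh3 are highest in ASC and lower in the Pax7-positive than in the Pax7-negative library, and the fibroblast and matrix genes other than Col3a1 are at 4.31 CPM or less in ASC.

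Genes of cell division were higher in the Pax7-positive library throughout both lists. All 28 mitosis genes and all 28 DNA replication genes listed reached 5 CPM, and each had a log2 ratio above 0. Of the mitosis genes 25 were 2-fold or more higher, with a median of 1.17, and of the replication genes 24, with a median of 1.44; 0 and 2 of them passed 4-fold. The fractions therefore differed in most of these genes by 2- to 4-fold. Mki67, the proliferation antigen, was at 94.7 CPM in the Pax7-positive and 40.1 CPM in the Pax7-negative library, 2.36-fold higher (95% counting interval 2.21 to 2.53), with 38.4 and 0.317 CPM in the QSC libraries, 64.7 CPM in ASC and 98.1 CPM in MEF.

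Among mitosis genes Nek2, a centrosomal kinase, was at 95.1 CPM in Pax7+ and 30.6 CPM in Pax7- cells. Mybl2, a transcription factor of the late cell cycle, was at 61.2 CPM in Pax7+ and 20.8 CPM in Pax7- cells. Foxm1, another such factor, was at 111 CPM in Pax7+ and 38.1 CPM in Pax7- cells. Kif11, the spindle motor, was at 108 CPM in Pax7+ and 37.9 CPM in Pax7- cells. The smallest ratios belonged to Ccnb2, a mitotic cyclin, at 148 CPM in Pax7+ and 83.2 CPM in Pax7- cells. Cenpa, the centromeric histone, was at 132 CPM in Pax7+ and 70.4 CPM in Pax7- cells. Summed over the list, mitosis genes were at 4064 CPM in the Pax7-positive and 1802 CPM in the Pax7-negative library, 471 and 34.95 CPM in the QSC libraries, 2066 CPM in ASC and 2759 CPM in MEF. The Pax7-positive library was the highest of the 6 and the Pax7-negative library was below ASC and MEF.

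Among replication genes the 2 past 4-fold were Ccne1, the cyclin of S phase entry, at 860.2 CPM in the Pax7-positive and 198 CPM in the Pax7-negative library, 4.35-fold higher (95% counting interval 4.23 to 4.48), and Rrm2, the ribonucleotide reductase subunit, at 558 CPM in the Pax7-positive and 133 CPM in the Pax7-negative library, 4.19-fold higher (95% counting interval 4.04 to 4.33). Ccne1 was at 14.8 and 8.14 CPM in the QSC libraries, 68.6 CPM in ASC and 66.9 CPM in MEF, so both iMPC fractions exceeded all other libraries. Rrm2 was at 112 and 20.3 CPM in the QSC libraries, 535 CPM in ASC and 408 CPM in MEF, and the Pax7-positive level was near that of ASC. Cdc6, a licensing factor, was at 62.0 CPM in Pax7+ and 17.1 CPM in Pax7- cells. Pola1, the catalytic subunit of DNA polymerase alpha, was at 50.1 CPM in Pax7+ and 14.4 CPM in Pax7- cells. Gins2, a part of the replicative helicase, had the smallest ratio, at 48.5 CPM in Pax7+ and 28.8 CPM in Pax7- cells.

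The bases before the start of mitosis genes often held the letters CCAAT, the element bound by NF-Y that is known from cell cycle promoters. Searched on both strands in the 250 bases before the start (RefSeq, GRCm38.p6, 1 promoter a gene), CCAAT was found in 19 of 23 mitosis genes with an entry (82.6%) and 14 of 22 replication genes (63.6%), against 34.5% of all 27025 promoters and 36.6% of those of genes at 5 CPM. The letters TTTGAA, the core of the CHR element of the same promoters, were found in 8 of 23 mitosis genes (34.8%) and 3 of 22 replication genes (13.6%), against 16.3% of all promoters and 9.79% of those of genes at 5 CPM; the 2 motifs can share 1 base. The 2 mitosis genes of largest ratio that hold CCAAT within 150 bases are shown because they carry the pattern, 5′ to 3′ in the direction of the gene and ending at the base before the start, with CCAAT or its reverse complement in capitals.
Nek2 (chr1:191821323-191821472, plus strand): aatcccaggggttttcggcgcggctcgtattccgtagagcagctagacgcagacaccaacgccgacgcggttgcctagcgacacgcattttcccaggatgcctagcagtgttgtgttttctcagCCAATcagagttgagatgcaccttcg
Kif11 (chr19:37376232-37376381, plus strand): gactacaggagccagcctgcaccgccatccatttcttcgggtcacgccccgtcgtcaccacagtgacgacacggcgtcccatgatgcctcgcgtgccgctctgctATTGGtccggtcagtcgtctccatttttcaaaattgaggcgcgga
The element starts 26 bases before the start in Nek2 and 45 in Kif11. A match describes the letters and says nothing of binding.

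Inhibitors of the cell cycle showed no such shift: of 16 at 5 CPM, 0 were called in either direction, with a median log2 ratio of -0.10. Over all genes tested 6.86% were called in either direction. Cdkn1a, the p21 inhibitor that Myod1 switches on at cell cycle exit, was at 501 CPM in Pax7+ and 523 CPM in Pax7- cells. Ccnd3, a D-type cyclin that persists in differentiating muscle, was at 2395 CPM in Pax7+ and 1262 CPM in Pax7- cells. Rbl1, an RB relative, was at 47.4 CPM in Pax7+ and 18.4 CPM in Pax7- cells. Cdkn1b, the p27 inhibitor, was lower, at 4.70 CPM in Pax7+ and 10.6 CPM in Pax7- cells.

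The myogenic regulators Myod1 and Myog differed in opposite directions between the fractions, each by less than 2-fold. Myod1, the determination factor, was at 719 CPM in the Pax7-positive and 404 CPM in the Pax7-negative library, 1.78-fold higher (95% counting interval 1.74 to 1.82), with 1836 and 629.6 CPM in the QSC libraries, 1029 CPM in ASC and 0.598 CPM in MEF. Myog, the factor of terminal differentiation, was at 892 CPM in the Pax7-positive and 1358 CPM in the Pax7-negative library, 1.52-fold lower (95% counting interval 1.499 to 1.55), with 189 and 4.07 CPM in the QSC libraries, 2055 CPM in ASC and 0.635 CPM in MEF. For both genes the 2 fractions stood far above MEF and below ASC. Myf6, the factor of mature fibres, was low in both, at 0.418 CPM in Pax7+ and 3.72 CPM in Pax7- cells.

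Of 27 genes of commitment and fusion at 5 CPM, 0 were called higher and 6 lower, with a median log2 ratio of -0.37. Mef2c, the transcription factor that works with Myog on muscle genes, was at 14.99 CPM in the Pax7-positive and 163 CPM in the Pax7-negative library, 10.9-fold lower (95% counting interval 9.90 to 11.996), and at 621 CPM in ASC. Lmod3, which nucleates thin filaments, was at 2.80 CPM in Pax7+ and 22.9 CPM in Pax7- cells. Klhl41, a sarcomere-stabilising adaptor, was at 4.38 CPM in Pax7+ and 32.1 CPM in Pax7- cells. Cav3, the muscle caveolin, was at 2.16 CPM in Pax7+ and 16.01 CPM in Pax7- cells. Tmem8c (Mymk, the fusion protein myomaker), named after its values were seen, was at 61.0 CPM in Pax7+ and 253 CPM in Pax7- cells. On the other side Dok7, a part of the neuromuscular junction, was at 53.7 CPM in Pax7+ and 31.4 CPM in Pax7- cells. Chrnb1, an acetylcholine receptor subunit, was at 58.4 CPM in Pax7+ and 36.0 CPM in Pax7- cells. Fitm1, a fat storage protein, was at 28.2 CPM in Pax7+ and 11.3 CPM in Pax7- cells. In all, 10 of the 27 genes had a log2 ratio above 0, with 1 at 2-fold or more, and 17 below, with 10 at 2-fold or more.

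Sarcomere genes gave the largest number of called members of any list, 30. Of 49 listed, 40 reached 5 CPM, 30 were called lower and 0 higher in the Pax7-positive library, 34 were 2-fold or more lower, and the median log2 ratio was -3.12. Mybph, a myosin-binding protein, was at 13.3 CPM in the Pax7-positive and 267 CPM in the Pax7-negative library, 20.1-fold lower (95% counting interval 18.2 to 22.2). Tnnc1, slow troponin C, was at 11.7 CPM in the Pax7-positive and 233 CPM in the Pax7-negative library, 19.9-fold lower (95% counting interval 17.9 to 22.2). Myl4, the embryonic light chain, was at 11.004 CPM in Pax7+ and 213 CPM in Pax7- cells. Tnnc2, fast troponin C, was at 16.2 CPM in Pax7+ and 264 CPM in Pax7- cells. Myh3, embryonic myosin heavy chain, was at 47.7 CPM in the Pax7-positive and 629 CPM in the Pax7-negative library, 13.2-fold lower (95% counting interval 12.5 to 13.9), and at 2.81 and 1.09 CPM in the QSC libraries, 4413 CPM in ASC and 0.785 CPM in MEF.

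All 30 of these genes were higher in ASC than in the Pax7-negative library, and all 30 were higher in the Pax7-negative library than in MEF. Over the list the summed level was 4933 CPM in the Pax7-positive, 10475 CPM in the Pax7-negative, 2472 and 3602 CPM in the QSC, 50167 CPM in the ASC and 3730 CPM in the MEF library. Members within 4-fold, Des and Actc1 among them, made up a large part of the Pax7-positive sum, so the sums differ less than the median ratio. The 10 members within 4-fold included Des, Actn3, Actc1 and Tnnt1. Des, the intermediate filament desmin, was at 1999.9 CPM in Pax7+ and 1470.3 CPM in Pax7- cells. Actn3, alpha-actinin 3, was at 344 CPM in Pax7+ and 234 CPM in Pax7- cells, the only 2 above 0 on the log2 scale. Actc1, cardiac actin of embryonic muscle, was at 1084 CPM in Pax7+ and 1966 CPM in Pax7- cells. Tnnt1, slow troponin T, was at 113 CPM in Pax7+ and 179 CPM in Pax7- cells. Alongside, markers of fibroblasts were also lower in the Pax7-positive library, as given below; their part in the sarcomere difference was not tested.

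The letters CAGCTG, an E-box of the kind bound by Myod1 and Myog, were found before the start of 11 of the 27 sarcomere genes called lower that had an entry (40.7%), against 12.8% of all promoters and 11.6% of those of genes at 5 CPM, in the same 250-base windows. The MEF2 element was found in 7 of the 27 (25.9%), against 3.01% and 1.51%. By comparison CAGCTG was found in 3 of 23 mitosis and 0 of 22 replication promoters. The MEF2 element was found in 2 of 23 (8.7%) and 0 of 22. Sarcomere genes not called lower were not searched, so traits of the list and of its called members cannot be told apart. The windows of the 2 members with the largest difference that hold CAGCTG within 150 bases are shown. CAGCTG reads the same on both strands and is in capitals.
Mybph (chr1:134193298-134193447, plus strand): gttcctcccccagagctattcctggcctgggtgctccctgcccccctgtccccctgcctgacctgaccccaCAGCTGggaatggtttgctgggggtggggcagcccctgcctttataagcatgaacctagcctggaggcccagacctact
Tnni1 (chr1:135799271-135799420, plus strand): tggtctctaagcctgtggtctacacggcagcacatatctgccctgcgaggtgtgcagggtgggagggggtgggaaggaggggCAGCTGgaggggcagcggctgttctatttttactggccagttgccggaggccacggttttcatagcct
It starts 79 bases before the start in Mybph and 68 in Tnni1, the gene of slow troponin I, at 17.4 CPM in Pax7+ and 281 CPM in Pax7- cells. The letters of CAGCTG and of the MEF2 element cannot overlap.

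Genes of excitation-contraction coupling and muscle energy use followed in part. Of 22 at 5 CPM, 0 were called higher and 9 lower, with a median log2 ratio of -1.08. Ckm, muscle creatine kinase, was at 0.676 CPM in Pax7+ and 12.1 CPM in Pax7- cells. Cox6a2, a muscle subunit of cytochrome oxidase, was at 0.804 CPM in Pax7+ and 13.4 CPM in Pax7- cells. Sln, a regulator of the calcium pump, was at 0.643 CPM in Pax7+ and 9.36 CPM in Pax7- cells. All 3 were under 1 CPM in the Pax7-positive library. Casq2, a calcium store protein, was at 8.82 CPM in Pax7+ and 112 CPM in Pax7- cells. Other parts of the calcium machinery and membrane were closer. Ryr1, the calcium release channel, was at 25.1 CPM in Pax7+ and 27.4 CPM in Pax7- cells. Jph2 was at 108 CPM in Pax7+ and 95.4 CPM in Pax7- cells. Sgca, alpha-sarcoglycan, was at 35.2 CPM in Pax7+ and 18.8 CPM in Pax7- cells. All 9 lower genes were at higher levels in ASC than in either fraction.

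Matrix genes were the second large group lower in the Pax7-positive library. Of 23 collagen genes at 5 CPM, 0 were called higher and 8 lower, with a median log2 ratio of -1.18; of 41 genes of other matrix proteins, 0 were called higher and 20 lower, with a median of -1.91. Col1a1, the main fibrillar collagen chain, was at 66.5 CPM in the Pax7-positive and 1377 CPM in the Pax7-negative library, 20.7-fold lower (95% counting interval 19.8 to 21.7), with 31.2 and 15.6 CPM in the QSC libraries, 4.31 CPM in ASC and 8924 CPM in MEF. Col6a2, a chain of collagen VI, was at 64.3 CPM in Pax7+ and 484 CPM in Pax7- cells. Col7a1 was at 1.45 CPM in Pax7+ and 12.1 CPM in Pax7- cells. Above 0 on the log2 scale were only 3 collagens, all under 1 CPM in MEF. Col26a1 was at 363 CPM in Pax7+ and 189.7 CPM in Pax7- cells. Col13a1 was at 65.6 CPM in Pax7+ and 40.3 CPM in Pax7- cells. Col19a1 was at 51.8 CPM in Pax7+ and 36.8 CPM in Pax7- cells. Col25a1, a collagen made by muscle cells, was at 1.06 CPM in Pax7+ and 8.98 CPM in Pax7- cells and highest in ASC, at 223 CPM.

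Spon2, a secreted spondin, had the largest difference of the matrix list, at 5.18 CPM in the Pax7-positive and 431 CPM in the Pax7-negative library, 83.3-fold lower (95% counting interval 71.3 to 97.9), with 2.81 and 2.08 CPM in the QSC libraries, 0.0862 CPM in ASC and 16.4 CPM in MEF. The small proteoglycan Lum was at 4.95 CPM in Pax7+ and 249.7 CPM in Pax7- cells. Its relative Dcn was at 12.3 CPM in Pax7+ and 417 CPM in Pax7- cells. Thbs2, a thrombospondin, was at 11.7 CPM in Pax7+ and 362 CPM in Pax7- cells. All 3 were under 13 CPM in the Pax7-positive library. On the other side stood Thbs4, a thrombospondin of muscle and tendon, at 40.1 CPM in Pax7+ and 12.1 CPM in Pax7- cells. Lama2, the laminin chain of the muscle basement membrane, was at 31.0 CPM in Pax7+ and 14.4 CPM in Pax7- cells. Tnc, tenascin C, was at 578 CPM in Pax7+ and 344 CPM in Pax7- cells. Of the 20 lower matrix genes, 16 were highest outside the iMPC pair in MEF, 4 in QSC and 0 in ASC, and 7 were at their highest of all 6 libraries in the Pax7-negative fraction.

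Markers of fibroblast identity, a list that shares members with the matrix lists, gave 14 lower and 0 higher of 29 at 5 CPM, with a median log2 ratio of -1.91. Pdgfra, the receptor that marks fibroblasts of muscle, was at 2.22 CPM in the Pax7-positive and 105 CPM in the Pax7-negative library, 47.1-fold lower (95% counting interval 37.1 to 60.7), with 0.715 and 0.814 CPM in the QSC libraries, 1.08 CPM in ASC and 73.8 CPM in MEF. Twist2, a mesenchymal transcription factor, was at 1.93 CPM in Pax7+ and 68.6 CPM in Pax7- cells and at 0.0477 and 0.181 CPM in the QSC libraries, 0.0862 CPM in ASC and 18.1 CPM in MEF, so that the Pax7-negative fraction exceeded MEF. Scara5 was at 2.32 CPM in Pax7+ and 100.04 CPM in Pax7- cells. Other members were near equal. Vim, vimentin, was at 795 CPM in Pax7+ and 767 CPM in Pax7- cells. Fap, a surface protease, was at 34.0 CPM in Pax7+ and 31.9 CPM in Pax7- cells. Zeb2 was at 130.2 CPM in Pax7+ and 113 CPM in Pax7- cells. Snai2 was at 54.1 CPM in Pax7+ and 36.5 CPM in Pax7- cells. The summed level of the list was 3742 CPM in the Pax7-positive and 10726 CPM in the Pax7-negative library, 3129.5 and 2954 CPM in the QSC libraries, 2962 CPM in ASC and 21291 CPM in MEF. On this sum the Pax7-positive library stood near the satellite cell libraries and the Pax7-negative library between them and MEF.

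Proteases and their inhibitors gave 8 lower and 0 higher of 34, with a median of -1.11. The collagenase Mmp13 had 0 counts in the Pax7-positive and 201 in the Pax7-negative library. It was 70.3-fold lower against a floor of 3 counts, and the lower limit of its 95% counting interval was 56.7-fold. Mmp3, stromelysin, was at 3.02 CPM in Pax7+ and 209 CPM in Pax7- cells. Mmp10 was at 0.933 CPM in Pax7+ and 16.4 CPM in Pax7- cells. Htra1, a serine protease of the matrix, was at 12.999 CPM in Pax7+ and 229 CPM in Pax7- cells. Mmp15, a membrane-bound protease, was higher, at 105 CPM in Pax7+ and 48.5 CPM in Pax7- cells, and at 93.2 CPM in ASC.

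**Figure D3:**
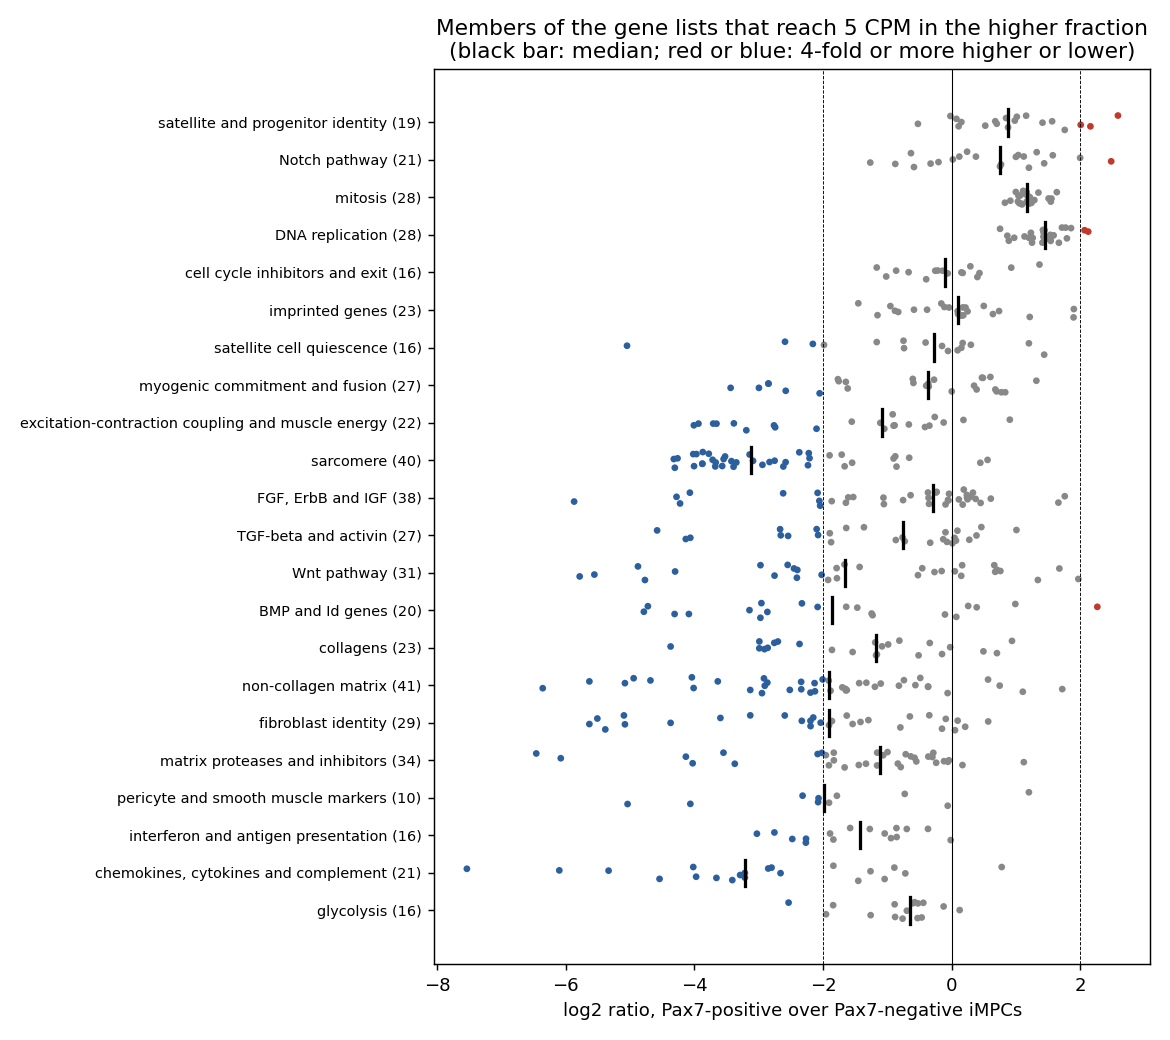
Log2 ratios, Pax7-positive over Pax7-negative, of the members of the main gene lists that reach 5 CPM in the higher fraction, 1 point a gene with the number of genes in brackets; black bars mark medians and dashed lines 4-fold. Mitosis and replication genes form tight groups above 0, and the sarcomere list reaches a median of -3.12; lists share some members.

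Signalling genes differed by pathway. Of 21 Notch genes at 5 CPM, 1 was called higher and 0 lower, 8 were 2-fold or more higher and 1 lower, and the median log2 ratio was 0.75. Lfng, the glycosyltransferase that tunes Notch receptors, was at 29.0 CPM in the Pax7-positive and 5.13 CPM in the Pax7-negative library, 5.64-fold higher (95% counting interval 4.75 to 6.74), with 0.429 and 0.271 CPM in the QSC libraries, 27.5 CPM in ASC and 10.4 CPM in MEF. The target Nrarp was at 13.8 CPM in Pax7+ and 3.41 CPM in Pax7- cells. The target Heyl is given above, and Dtx4, a ubiquitin ligase of the pathway, was at 271 CPM in Pax7+ and 91.1 CPM in Pax7- cells. The receptor Notch1 was at 117 CPM in Pax7+ and 53.8 CPM in Pax7- cells. The target Hey1 was at 103 CPM in Pax7+ and 41.0 CPM in Pax7- cells. Notch1 and Hey1 are named after their values were seen. Numb and Numbl restrain Notch. They were on the other side. Numbl was at 21.5 CPM in Pax7+ and 51.9 CPM in Pax7- cells. Numb was at 13.2 CPM in Pax7+ and 20.5 CPM in Pax7- cells. Maml2, a coactivator of Notch, was on that side too, at 2.70 CPM in Pax7+ and 5.03 CPM in Pax7- cells. In all, 15 of the 21 genes had a log2 ratio above 0 and 6 below.

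Of 20 BMP and Id genes, 1 was called higher and 10 lower, with a median of -1.86. The 1 higher gene was Nog, the secreted BMP antagonist noggin, at 46.5 CPM in the Pax7-positive and 9.63 CPM in the Pax7-negative library, 4.83-fold higher (95% counting interval 4.25 to 5.50), with 0.143 and 0.181 CPM in the QSC libraries, 34.8 CPM in ASC and 7.59 CPM in MEF. The ligands were on the other side. Bmp2 was at 0.418 CPM in Pax7+ and 13.04 CPM in Pax7- cells. Bmp4 was at 0.354 CPM in Pax7+ and 7.26 CPM in Pax7- cells. Bmp7 was at 0.290 CPM in Pax7+ and 10.1 CPM in Pax7- cells. The secreted antagonist Grem1, at 1.93 CPM in Pax7+ and 39.7 CPM in Pax7- cells, stood with the ligands and not with Nog. The BMP targets of the Id family did not follow the ligands. Id1 was at 127 CPM in Pax7+ and 97.1 CPM in Pax7- cells. Id2 was at 271 CPM in Pax7+ and 137 CPM in Pax7- cells. Id3 was at 672 CPM in Pax7+ and 563 CPM in Pax7- cells.

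Of 31 Wnt genes, 0 were called higher and 12 lower, with a median of -1.67. At the low end were 3 secreted antagonists and 1 ligand. Frzb was at 1.13 CPM in Pax7+ and 66.3 CPM in Pax7- cells. Dkk2 was at 0.676 CPM in Pax7+ and 22.1 CPM in Pax7- cells. Dkk3 was at 4.31 CPM in Pax7+ and 119.6 CPM in Pax7- cells. The ligand Wnt11 was at 0.0644 CPM in Pax7+ and 6.62 CPM in Pax7- cells, with 2 counts in the Pax7-positive library. Lgr5, the R-spondin receptor and Wnt target, was at 61.0 CPM in the Pax7-positive and 15.5 CPM in the Pax7-negative library, 3.93-fold higher (95% counting interval 3.54 to 4.36), with 0.906 and 1.13 CPM in the QSC libraries, 1.55 CPM in ASC and 4.48 CPM in MEF, so both fractions exceeded every other library. Fzd4, a Wnt receptor, was at 141 CPM in Pax7+ and 44.3 CPM in Pax7- cells. Znrf3, a ligase that removes Wnt receptors, was at 16.9 CPM in Pax7+ and 6.62 CPM in Pax7- cells, and the nuclear factor Tcf7l1 at 90.2 CPM in Pax7+ and 53.4 CPM in Pax7- cells. The Wnt genes named here are the 4 at each end of the list, so their sides were set by that choice. The 4 at the high end were membrane and nuclear genes. Of all 31 genes, 10 had a log2 ratio above 0 and 21 below, in the same GSK3 inhibitor medium.

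**Figure D4:**
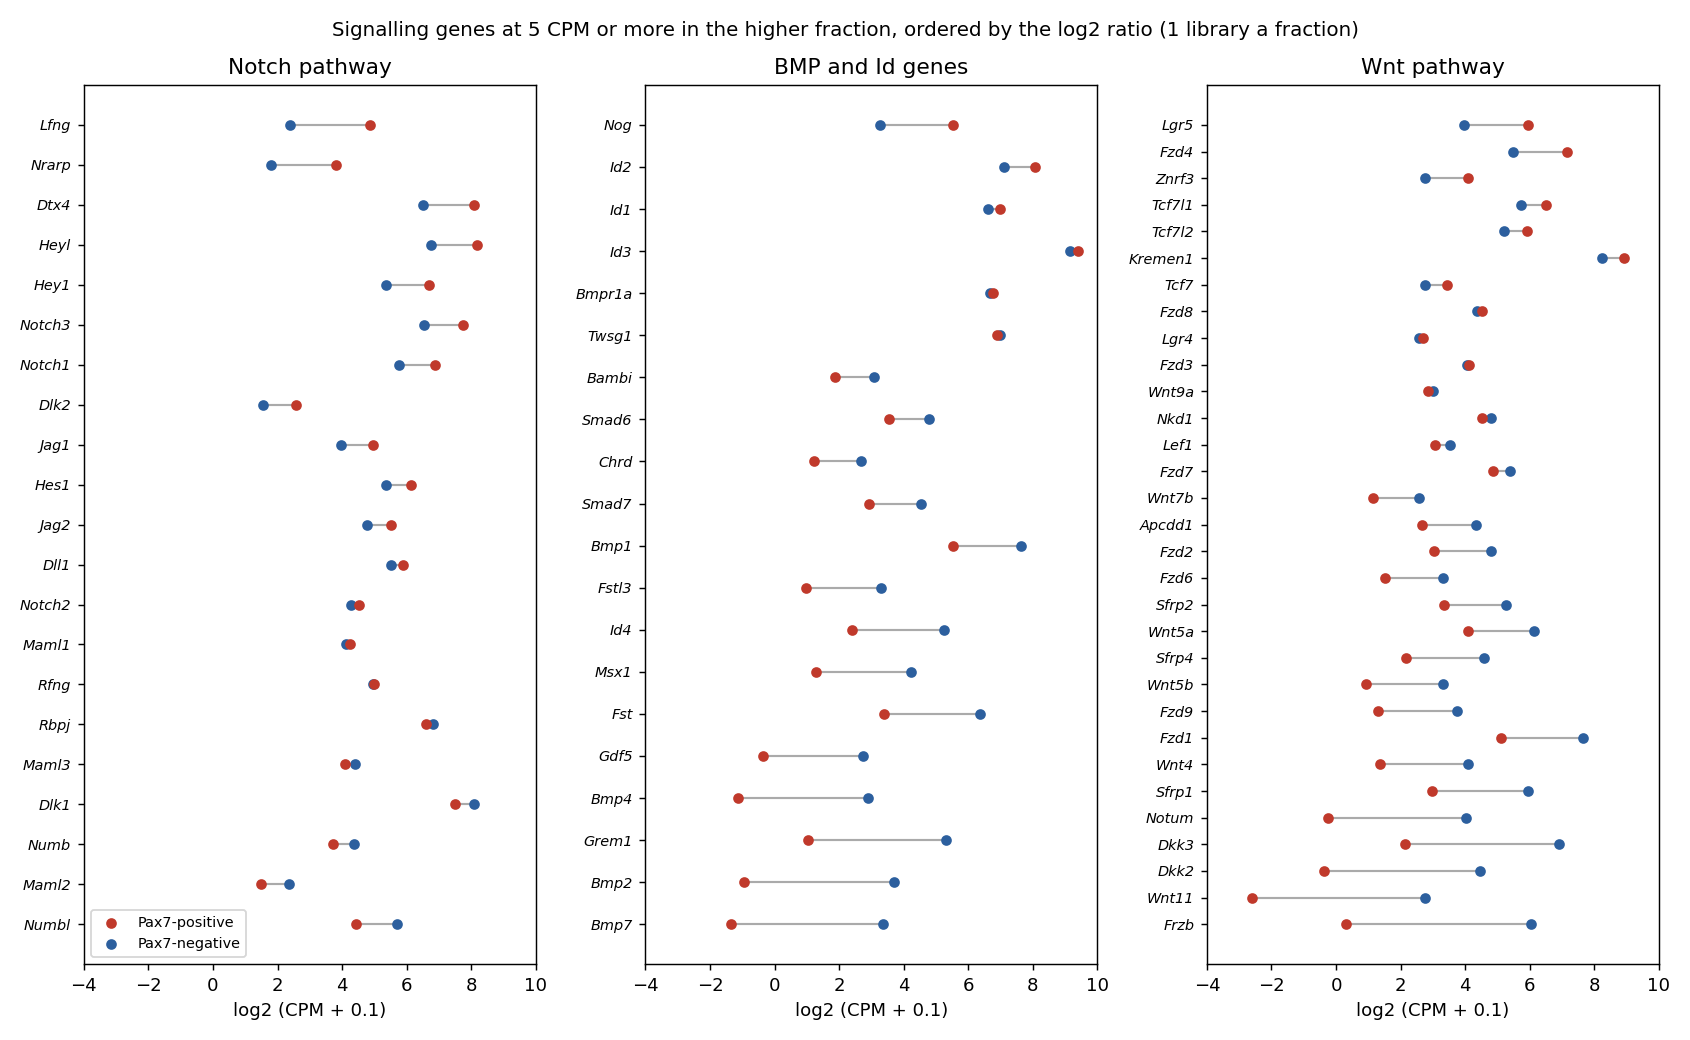
Levels of the Notch, BMP and Wnt genes that reach 5 CPM in the higher fraction, as log2 of CPM plus 0.1, with red points for the Pax7-positive and blue points for the Pax7-negative library, ordered by ratio. Notch genes lie mostly with red to the right, whereas the BMP ligands and secreted Wnt antagonists named in the text lie with blue far to the right.

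Of 27 genes of TGF-beta and activin signalling, 0 were called higher and 8 lower, with a median of -0.76. Tgfbi, a TGF-beta target of the matrix, was at 12.6 CPM in Pax7+ and 304 CPM in Pax7- cells. Inhba, the activin A subunit, was at 1.61 CPM in Pax7+ and 29.6 CPM in Pax7- cells. Cnn1, calponin, was at 1.09 CPM in Pax7+ and 19.5 CPM in Pax7- cells. Inhba and Cnn1 were at 353 and 509 CPM in MEF, above both fractions. Acvr2a, an activin and myostatin receptor, was at 97.7 CPM in Pax7+ and 48.6 CPM in Pax7- cells.

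Of 38 genes of FGF, ErbB and IGF signalling, 0 were called higher and 8 lower, with a median of -0.30. Fgf7, a ligand that mesenchyme makes, was at 1.64 CPM in Pax7+ and 100.5 CPM in Pax7- cells. Fgf10, another, was at 1.29 CPM in Pax7+ and 26.4 CPM in Pax7- cells. Their receptor Fgfr2 was at 1.51 CPM in Pax7+ and 26.6 CPM in Pax7- cells. Ereg, an ErbB ligand, was at 5.53 CPM in Pax7+ and 105 CPM in Pax7- cells. The muscle-type receptor Fgfr4 and the insulin receptor substrate Irs1 were on the other side, Irs1 at 91.1 CPM in Pax7+ and 28.8 CPM in Pax7- cells. The receptors of the same family, Fgfr4 and Fgfr2, thus stood in opposite directions.

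Of 17 cAMP response genes, 0 were called higher and 3 lower, among them Rgs2, given above, beside 0.208% and 6.66% of all genes tested. The median log2 ratio was -0.75, with 15 of the 17 below 0. Areg, an ErbB ligand, was at 7.05 CPM in Pax7+ and 57.5 CPM in Pax7- cells. Nr4a1, an immediate early nuclear receptor, was at 20.4 CPM in Pax7+ and 92.2 CPM in Pax7- cells. Fos was at 76.4 CPM in Pax7+ and 59.9 CPM in Pax7- cells. Sik1 was at 103 CPM in Pax7+ and 111 CPM in Pax7- cells, near equal in the shared forskolin medium. Crem, a cAMP-responsive transcription factor, was just under 4-fold lower, at 10.1 CPM in Pax7+ and 39.5 CPM in Pax7- cells. The QSC libraries were at 2174 and 4831 CPM of Fos.

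Secreted immune factors were lower in the Pax7-positive library. Of 21 chemokine, cytokine and complement genes at 5 CPM, 14 were called lower and 0 higher, with a median log2 ratio of -3.22. C3, the central complement component, had 1 count in the Pax7-positive and 604 in the Pax7-negative library, a ratio of 634-fold (113 to 25083) lower. C1s, a complement protease, was at 0.515 CPM in Pax7+ and 23.8 CPM in Pax7- cells. Il1rn, the interleukin 1 antagonist, was at 0.0644 CPM in Pax7+ and 9.69 CPM in Pax7- cells. Il11 was at 1.54 CPM in Pax7+ and 37.7 CPM in Pax7- cells. Of the 14 genes, 12 were highest outside the pair in QSC. Csf1, the macrophage growth factor, was higher, at 144 CPM in Pax7+ and 84.0 CPM in Pax7- cells. Of 16 interferon and antigen presentation genes, 5 were called lower and 0 higher, with a median of -1.43; H2-K1, an MHC class I gene whose reads may be shared with its close relatives, was at 4.38 CPM in Pax7+ and 36.3 CPM in Pax7- cells. Psmb8, an immunoproteasome subunit, was at 2.03 CPM in Pax7+ and 14.2 CPM in Pax7- cells.

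Other groups differed little or in few members. Their counts stand beside 6.66% of all genes tested called lower and 6.86% called in either direction, so they are near or below those shares. Of 16 glycolysis genes, 1 was called lower, the lactate transporter Slc16a3 at 62.5 CPM in Pax7+ and 363 CPM in Pax7- cells, and 15 had ratios below 0, with a median of -0.65. The glucose transporter Slc2a1 was at 44.1 CPM in Pax7+ and 171 CPM in Pax7- cells. Pfkl, phosphofructokinase of liver type, was at 123 CPM in Pax7+ and 442 CPM in Pax7- cells. Of 23 imprinted genes, 0 were called in either direction, with a median of 0.10. The highest ratios were of 3 genes expressed from the paternal copy. Plagl1 was at 811 CPM in Pax7+ and 218 CPM in Pax7- cells. Peg12 was at 32.3 CPM in Pax7+ and 8.61 CPM in Pax7- cells. Mest was at 3427 CPM in Pax7+ and 1479 CPM in Pax7- cells. The maternal noncoding RNA Meg3 was on the other side, at 63.0 CPM in Pax7+ and 173 CPM in Pax7- cells. Rian, from the same locus, was at 19.8 CPM in Pax7+ and 36.6 CPM in Pax7- cells. Genes of the paternal copy stood on this side too: Ndn was at 36.2 CPM in Pax7+ and 80.6 CPM in Pax7- cells. Dlk1, also a Notch ligand relative, was at 182 CPM in Pax7+ and 274 CPM in Pax7- cells. Of 38 Hox genes found, 8 reached 5 CPM, with 0 called and a median of 0.12; Hoxb9 was at 10.9 CPM in Pax7+ and 4.29 CPM in Pax7- cells. Hoxa10 was at 2.09 CPM in Pax7+ and 5.57 CPM in Pax7- cells, beside 52.7 CPM of Hoxa10 in ASC and 50.6 CPM in MEF.

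Markers of other cell types gave several genes called lower and 0 called higher in the Pax7-positive library. Over all genes tested 6.66% were called lower and 0.208% higher, so 0 higher does not set these short lists apart. The endothelial, immune and Schwann lists held few genes at 5 CPM. Of 11 endothelial markers 2 reached 5 CPM and 1 was called lower, Flt1 at 1.64 CPM in Pax7+ and 12.7 CPM in Pax7- cells; the defining genes Cdh5 and Kdr had 2 and 0 counts in the Pax7-positive and 90 and 82 in the Pax7-negative library, and the list summed to 35.6 CPM in Pax7+ against 77.3 CPM in Pax7- cells. Of 11 immune markers 1 reached 5 CPM, Laptm5 at 18.6 CPM in Pax7+ and 36.3 CPM in Pax7- cells, and Ptprc, the pan-leukocyte gene, had 1 count in each fraction. Of 10 pericyte and smooth muscle markers at 5 CPM, 5 were lower, among them Myh11, smooth muscle myosin, at 0.515 CPM in Pax7+ and 19.4 CPM in Pax7- cells. Kcnj8, a potassium channel, was at 19.98 CPM in Pax7+ and 100.003 CPM in Pax7- cells. Acta2, which precursors and fibroblasts also express, was at 452 CPM in Pax7+ and 751 CPM in Pax7- cells. Notch3, given above, was the 1 member with a log2 ratio above 0.

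Of 11 Schwann and neural crest markers 3 reached 5 CPM and 1 was lower, S100b at 0.290 CPM in Pax7+ and 19.5 CPM in Pax7- cells, whereas Sox10 had 6 counts in the Pax7-positive and 1 in the Pax7-negative library. Ngfr and Erbb3 were within 4-fold, with log2 ratios of -1.14 and 0.19. Of 5 adipocyte markers 3 were lower, and genes that define fat cells were near 0. Fabp4, a fatty acid binding protein, was at 0.290 CPM in Pax7+ and 11.99 CPM in Pax7- cells. Pparg was at 1.03 CPM in Pax7+ and 7.498 CPM in Pax7- cells. Cd36 was at 1.45 CPM in Pax7+ and 10.5 CPM in Pax7- cells. Cebpa and Lpl were within 4-fold, with log2 ratios of -1.01 and -0.08. The adipocyte list summed to 426 CPM in Pax7+ and 483 CPM in Pax7- cells. The defining genes Adipoq and Plin1 had 0 counts in the Pax7-positive and 4 and 2 in the Pax7-negative library. Of 4 cartilage and bone markers 2 were lower. Spp1, osteopontin, was at 287 CPM in Pax7+ and 2519 CPM in Pax7- cells. Alpl was at 1.74 CPM in Pax7+ and 23.3 CPM in Pax7- cells. Runx2 and Sox9 were within 4-fold, with log2 ratios of -1.06 and 0.50. The 3 epithelial markers at 5 CPM, Krt8, Krt18 and Krt19, were all called lower. Krt8 was at 0.193 CPM in Pax7+ and 6.15 CPM in Pax7- cells. Krt18 was at 0.418 CPM in Pax7+ and 22.9 CPM in Pax7- cells. Krt19 was at 0.579 CPM in Pax7+ and 33.4 CPM in Pax7- cells. The defining gene Epcam was at 0.0965 CPM in Pax7+ and 0.203 CPM in Pax7- cells. Reads of Krt8 and Krt18 may be shared with their pseudogenes. Of 10 pluripotency genes 0 reached 5 CPM. The part of these cell types in the other groups was not tested.

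Most of the leading genes lower in the Pax7-positive library had few reads there, apart from Spon2, Mmp3 and Trf. Ordered by the log2 ratio with its prior count, which draws in genes with few counts, C3 was followed by Pnoc, the precursor of nociceptin, at 0.322 CPM in the Pax7-positive and 52.4 CPM in the Pax7-negative library, 163-fold lower (95% counting interval 88.3 to 340.2), and at most 0.112 CPM in the other 4 libraries. Lcn2, a lipocalin that binds siderophores, had 1 count in Pax7+ against 321 in Pax7- cells, a ratio of 337-fold (60.0 to 13349.8) lower. Upk3b, a uroplakin, had 0 counts in Pax7+ against 205 in Pax7- cells, and Mrap, the melanocortin receptor partner, had 0 in Pax7+ against 160 in Pax7- cells. Against the floor of 3 counts Upk3b was 71.7-fold and Mrap 56.0-fold lower. The lower limits of their 95% counting intervals were 57.8-fold for Upk3b and 45.0-fold for Mrap. Trf, transferrin, was at 7.30 CPM in the Pax7-positive and 491 CPM in the Pax7-negative library, 67.2-fold lower (95% counting interval 59.0 to 77.0), with 174 and 142 CPM in the QSC libraries, 1.46 CPM in ASC and 4.86 CPM in MEF. Other leading genes were under 1 CPM in the Pax7-positive library. Crispld1 was at 0.0965 CPM in Pax7+ and 14.5 CPM in Pax7- cells. Cyp2s1, a cytochrome P450, was at 0.161 CPM in Pax7+ and 17.1 CPM in Pax7- cells. Tmem178 was at 0.0322 CPM in Pax7+ and 6.96 CPM in Pax7- cells. Kng1 and Kng2 are kininogens whose reads may be shared between them. Both were near 0 in the Pax7-positive library. Kng1 was at 0.0322 CPM in Pax7+ and 7.09 CPM in Pax7- cells. Kng2 was at 0.0644 CPM in Pax7+ and 9.76 CPM in Pax7- cells. Trf, Spon2 and Mmp3 stood out in this set for their counts in the Pax7-negative library, 14535, 12771 and 6203.

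The 736 genes lower in the Pax7-positive library were set against libraries that neither fraction shares. Of them, 230 (31.2%, or 33.0% of the 697 genes so called) were 4-fold or more higher in MEF than in ASC, where 4.51% of all genes tested between the fractions and 6.15% of genes at 5 CPM in MEF or ASC were. In the other direction, 117 (15.9%, or 14.5% of the 806 so called) were 4-fold or more lower in MEF than in ASC, where 5.19% and 7.11% were. These genes thus included both genes higher in MEF and genes higher in ASC. Of the 23 genes called higher in the Pax7-positive library, 0 were higher and 8 (34.8%) lower in MEF than in ASC.

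Of ASC over QSC, 171 of the 736 (23.2%) were higher and 178 (24.2%) lower, beside 14.7% and 8.96% of all genes tested, and of the 23 genes 9 (39.1%) and 2 (8.7%). Of MEF over QSC, 215 (29.2%) and 105 (14.3%) of the 736 were higher and lower, beside 14.5% and 8.81%. Among the other libraries, MEF held the highest level for 342 of the 736 (46.5%), QSC for 217 (29.5%) and ASC for 177, where MEF held it for 31.9% and ASC for 33.1% of all genes tested. The 736 genes all passed the 5 CPM minimum through the Pax7-negative library, so the shares that follow are partly set by that choice. For 315 of the 736 (42.8%), against 10.9% of all genes tested, the Pax7-negative library was the highest of all 6. In the Pax7-positive library 195 of the 736 (26.5%) were under 1 CPM, beside 1.76% of all genes tested. Those are the same 195 genes, because the calling rule takes in every tested gene that low. In the QSC libraries 207 (28.1%) and 253 (34.4%) of the 736 were under 1 CPM, beside 4.78% and 7.01% of all genes tested. In ASC 244 (33.2%) were, beside 3.66%, and in MEF 165 (22.4%), beside 3.55%.

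**Figure D5:**
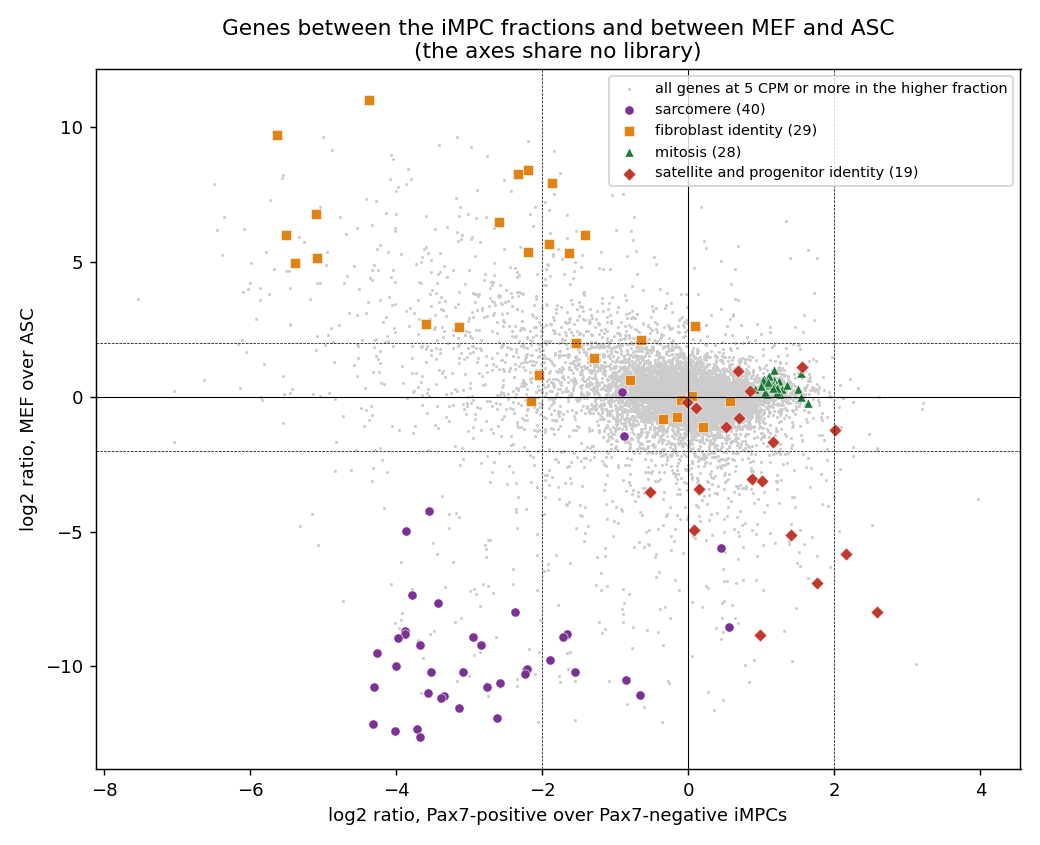
Log2 ratio of Pax7-positive over Pax7-negative iMPCs (horizontal axis) and of MEF over ASC (vertical axis) for the genes at 5 CPM or more in the higher fraction, with 4 lists in colour; dashed lines mark 4-fold. On the left, genes lower in the Pax7-positive library form 2 arms, with most fibroblast genes above 0 on the vertical axis and most sarcomere genes below 0, while mitosis genes sit near 0 on that axis and above 0 on the other.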

How the data were processed

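Poly(A) RNA was sequenced from 6 libraries with a directional kit. The deposited files hold the authors' unscaled counts for each Ensembl gene and their RPKM values; STAR 2.3.0, HTSeq 0.6.0, Picard 1.100, edgeR and the mm9 build are named, with no roles, in the submitters' processing notes, and whether counting used strand is not given in the sources used here. The files held 38924 genes, with 155 duplicated symbols, and the 17116 genes kept by edgeR's low-count filter, run by group over the 6 libraries, were scaled by TMM (edgeR 4.0.16, limma 3.58.1, R 4.3.3), with factors of 1.180 for the Pax7-positive and 1.212 for the Pax7-negative library. Log2 ratios used a prior count of 2. Folds are ratios of scaled counts with exact (Clopper-Pearson) 95% intervals for counting error only, and a gene at 0 counts was set to a floor of 3 counts for that library (Python 3.11.15, scipy 1.17.1). The deposited RPKM values served as an alternative with a pseudocount of 0.1, as did DESeq2 1.42.0 size factors. The procedure was tested on simulated data. Named genes are a core set, the 15 largest ratios in each direction and up to 4 members at each end of every list. Genes at the edge of the calling rule and those whose promoters are shown are named too. So are the remaining genes called higher and some list members under 5 CPM. Any other gene was chosen after its values were seen. The lists and members were chosen with earlier results of these data known.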

Additional observations from a re-analysis of the deposited data

How the results depend on the processing

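No paired analysis was possible because each fraction had 1 library. The count of 23 genes higher in the Pax7-positive library was 49 at a minimum of 1 CPM, 85 with no minimum, 556 at 2-fold, 4 at 8-fold and 14 with the whole interval beyond 4-fold. The count of 736 lower genes was 1234 at a minimum of 1 CPM, 1688 with no minimum, 356 at a minimum of 20 CPM, 1483 at 2-fold and 357 at 8-fold. Other scalings, another prior count and the deposited RPKM gave 21 to 27 higher and 695 to 822 lower genes, with 21 to 23 and 695 to 736 of them shared with those reported, and moved the median of all genes by at most 0.0594 on the log2 scale. Of the 23 genes, 2 were lower in ASC than in QSC, against 0 with library size alone and 1 to 3 when a QSC library was left out (1 without that of mouse 3, 3 without that of mouse 1), an alternative chosen after the data were seen. Of 1165 values of 233 named genes under these settings, 1087 stayed within their counting interval, 78 moved beyond it and 0 genes called at 4-fold changed sign; Hoxc8, Col5a3, Sdc4, Pcolce and Tap1, all within 0.0442 of 0 on the log2 scale, changed sign under DESeq2-style size factors. The causes were not tested. Depth limits genes under 1 CPM, where intervals are wide, and ratios of genes with few counts in the Pax7-positive library are the least certain.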

Other observations

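Of 4 further gene lists, assembled after values in these data had been seen and so described only, 3 were lower and 1 was higher in the Pax7-positive library. Genes of the retinoic acid pathway gave 9 lower and 0 higher of 16 at 5 CPM, with a median log2 ratio of -2.30. Crabp1, which binds retinoic acid in the cytoplasm, was at 13.8 CPM in the Pax7-positive and 653 CPM in the Pax7-negative library, 47.4-fold lower (95% counting interval 43.1 to 52.3), with 0.524 and 0.0452 CPM in the QSC libraries, 0.172 CPM in ASC and 70.1 CPM in MEF. Aldh1a2, which makes retinoic acid, was at 3.89 CPM in Pax7+ and 75.6 CPM in Pax7- cells. Cyp26b1, which breaks it down, was at 1.93 CPM in Pax7+ and 38.8 CPM in Pax7- cells, and the receptor and target Rarb at 8.98 CPM in Pax7+ and 48.0 CPM in Pax7- cells. The receptor Rara was on the other side, at 83.1 CPM in Pax7+ and 67.1 CPM in Pax7- cells, as was Rxra, at 81.9 CPM in Pax7+ and 58.7 CPM in Pax7- cells. The list summed to 378 CPM in the Pax7-positive and 1488 CPM in the Pax7-negative library, 254 and 252 CPM in QSC, 303 CPM in ASC and 496 CPM in MEF, so the Pax7-negative library stood above the other 5.

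Genes of the response to low oxygen were all below 0 on the log2 scale, 21 of 21, with 13 called lower and a median of -2.22. Ndrg1 was at 9.04 CPM in Pax7+ and 72.0 CPM in Pax7- cells. The hormone Adm was at 7.37 CPM in Pax7+ and 63.4 CPM in Pax7- cells. The mitophagy receptor Bnip3 and the growth factor Vegfa had smaller ratios. Bnip3 was at 48.0 CPM in Pax7+ and 290.2 CPM in Pax7- cells. Vegfa was at 51.5 CPM in Pax7+ and 234 CPM in Pax7- cells. Stc1, a secreted stanniocalcin, was at 114 CPM in Pax7+ and 577 CPM in Pax7- cells. The sums were 962 CPM in the Pax7-positive and 3706 CPM in the Pax7-negative library, 3229 and 2843 CPM in QSC, 974 CPM in ASC and 1332 CPM in MEF. Ndrg1 alone gave 1434 and 1051 CPM of the QSC sums. The glycolysis list, described above, had a median of -0.65.

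Of 8 mesothelial markers at 5 CPM, 7 were lower, with a median of -4.44. Wt1 was at 1.19 CPM in Pax7+ and 8.68 CPM in Pax7- cells. Bnc1 was at 0.225 CPM in Pax7+ and 6.15 CPM in Pax7- cells and Msln, mesothelin, at 12.97 CPM in Pax7+ and 41.3 CPM in Pax7- cells, while Muc16 had 0 counts in both fractions. The sums were 17.8 CPM in the Pax7-positive, 137 CPM in the Pax7-negative and 135 CPM in the MEF library; the keratins and Upk3b belong to this list too, and whether any such cells were in the sort was not tested.

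All 13 mitochondrially encoded genes were above 0, with 0 called at 4-fold, 4 at 2-fold and a median of 0.96. They took 0.857% of counts in the Pax7-positive and 0.451% in the Pax7-negative library, against 1.1% and 2.33% in QSC, 0.411% in ASC and 0.398% in MEF. The largest ratio was that of mt-Co1, a subunit of cytochrome oxidase, at 548 CPM in Pax7+ and 156 CPM in Pax7- cells.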
